A study of Homo sapiens with 12 samples.

Results

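The genes described here are 32 genes of the endoplasmic reticulum (ER): its chaperones, its folding enzymes, the machinery that removes misfolded proteins from it, and the sensors of the unfolded protein response (UPR). They were chosen by symbol from a list of such genes, and all 32 were found among the 18739 genes of the deposited tables. A test was possible for 31 of them. The remaining gene, DERL3, a derlin of the ER membrane, had 0 counts in each chaetocin library, 2, 0 and 0 in DMSO, 1, 0 and 3 with siSUV39H1 and 0, 0 and 1 with siNC, too few to be tested. RNA was sequenced from the neuroblastoma line SK-N-SH, an established human line, in 12 libraries that form 4 groups of 3. The chaetocin group received that fungal metabolite, used as an inhibitor of the H3K9 methyltransferase SUV39H1, at 50 nM, and its reference received the solvent DMSO. The siSUV39H1 group was transfected with an siRNA against SUV39H1, and its reference with the control siRNA siNC. The sample labels call the chaetocin, DMSO and siNC cells wild type and the siSUV39H1 cells a SUV39H1 knockdown. The series' design text speaks of shRNA constructs where the sample labels speak of siRNAs, and the labels' wording is kept here. No source used here gives exposure times or siRNA sequences, and the design text describes the libraries as biological triplicates. A single line and a single dose were profiled, and only RNA was measured.

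Proteins that enter the ER through the translocon are folded there by HSP70 and HSP90 chaperones, by lectin chaperones that bind their sugar chains, by protein disulfide isomerases and by prolyl isomerases. Proteins that fail to fold are passed back to the cytosol and degraded, a route called ERAD. When unfolded proteins accumulate, the sensors IRE1 (gene ERN1), ATF6 and PERK (gene EIF2AK3) start the UPR: IRE1 splices the XBP1 mRNA, ATF6 is cut to release a transcription factor, and PERK slows translation and favours that of ATF4. ATF6 and spliced XBP1 act on many of the chaperone and ERAD genes through a promoter sequence called the ER stress response element.

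That element, CCAAT followed after any 9 bases by CCACG and read on either strand, was present in the promoters of 6 of the 29 members for which RefSeq promoter sequences (250 bases before to 50 after a start site, GRCh38.p14, the first promoter listed for each gene) were found, which is 20.7%, against 0.0806% of all 27305 promoters. The sites are shown because the UPR factors are known to act through this element, and the capitals mark the 5 bases at each end that the search required. The members were chosen as ER and UPR genes, so the shares here and for the elements below describe that choice and test nothing. The site of CALR ends 207 bases before that start site, those of CANX, CRELD2, HSPA5 and XBP1 end 133, 62, 48 and 34 bases before it, and those of HSP90B1 176 and 71 bases before it. The start site used for CANX, the first of 4 listed, lies 20273 bases inside the annotated gene. With any listed promoter counted, a choice made after seeing the data, 7 members (24.1%) and 0.0916% of all genes had the element, PDIA6 being the added member. The sites of CANX, HSPA5, XBP1 and the first of HSP90B1 lie on the gene's own strand and the others on the opposite strand.
CALR, chr19:12938384-12938402, minus strand: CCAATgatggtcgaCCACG
CANX, chr5:179698778-179698796, plus strand: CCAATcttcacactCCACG
CRELD2, chr22:49918554-49918572, minus strand: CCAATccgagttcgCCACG
HSP90B1, chr12:103930216-103930234, plus strand: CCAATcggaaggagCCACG
HSP90B1, chr12:103930321-103930339, minus strand: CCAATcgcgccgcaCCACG
HSPA5, chr9:125241391-125241409, minus strand: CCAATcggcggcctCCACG
XBP1, chr22:28800603-28800621, minus strand: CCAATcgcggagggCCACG

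A related element, ATTGG followed after any 1 base by CCACG, was found in the promoters of HERPUD1, HYOU1 and SDF2L1, 10.3% of the 29 members against 0.0549% of all promoters. HYOU1 holds it on the plus strand in 2 copies.
HERPUD1, chr16:56932025-56932035, plus strand: ATTGGgCCACG
HYOU1, chr11:119057274-119057284, plus strand: ATTGGaCCACG
HYOU1, chr11:119057380-119057390, plus strand: ATTGGaCCACG
SDF2L1, chr22:21642114-21642124, minus strand: ATTGGtCCACG

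The plain CCAAT letters, which both elements contain on one strand or the other, were present in 86.2% of the member promoters and 35.7% of all promoters. The XBP1-type element TGACGTGG, which overlaps the second HYOU1 copy, was present in 3.45% and 0.795%, and an ATF4-type element, TGATGNAAT, in 0 of 29 member promoters and 1.02% of all promoters. These are matches of letters, and no binding was measured.

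Library totals lay between 18004632 and 19976995 counts, with the chaetocin libraries lowest. SUV39H1, the target, had 5.73, 6.07 and 5.48 CPM with siSUV39H1, against 18.7, 17.0 and 16.7 CPM with siNC, and it also had 7.69, 7.83 and 7.44 CPM with chaetocin, against 20.3, 19.6 and 24.6 CPM with DMSO (CPM, counts scaled to a fixed library total with TMM, a normalization for library composition). The markers of noradrenergic neuroblasts, summed over 8 genes, lay between 67.3 and 69.3 TPM (a level per transcript length, scaled to a fixed total) with chaetocin, against 862 to 1060 TPM with DMSO, and all 7 tested genes of that list were lower. With siSUV39H1 they summed to 633 to 708 TPM, against 505 to 512 TPM with siNC. TH, the enzyme that starts catecholamine synthesis, was at 0 counts in DMSO and siNC. Summed over 6 genes, mesenchymal markers ranged over 6469 to 7707 TPM with chaetocin, against 13450 to 13920 TPM with DMSO, and over 12800 to 13450 TPM with siSUV39H1, against 11970 to 12870 TPM with siNC. Markers of other cell types, in the order chaetocin, DMSO, siSUV39H1 and siNC, summed to 230 to 245, 166 to 176, 118 to 127 and 121 to 128 TPM for 6 leukocyte genes, to 163 to 171, 127 to 138, 175 to 182 and 137 to 143 TPM for 6 epithelial genes, and to 16.6 to 17.8, 0.35 to 0.38, 0.24 to 0.46 and 0.49 to 0.87 TPM for 5 endothelial genes. The 5 plasma cell markers found, of a cell type rich in ER, summed to 27.7 to 29.9 TPM with chaetocin, 85.9 to 94.6 with DMSO, 91.7 to 98.7 with siSUV39H1 and 77.0 to 80.3 with siNC. With chaetocin, 3 of the 4 plasma cell markers tested were higher, and SDC1, at 21.3 ± 2.35 CPM with chaetocin and 149 ± 3.77 CPM with DMSO (SD, n = 3), was lower. The tested markers called higher and lower with chaetocin numbered 1 and 5 for the mesenchymal, 4 and 0 for the leukocyte, 5 and 0 for the epithelial and 3 and 0 for the endothelial list. Outside the chaetocin group, the T cell gene CD3E was at 0 counts. The endothelial genes CDH5 (in DMSO and siSUV39H1) and KDR (in siNC) were also at 0. The part of these shifts in the results below was not tested.

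The 32 genes together took a smaller share of the transcriptome with chaetocin. They summed to 4811 ± 61.4 TPM in chaetocin libraries and to 7696 ± 62.7 TPM in DMSO libraries (SD, n = 3), which is 0.481% and 0.770% of all TPM. The groups did not overlap, with chaetocin libraries between 4741 and 4854 TPM and DMSO libraries between 7623 and 7735 TPM. With siSUV39H1 the sum was 8463 ± 82.3 TPM, against 7471 ± 237 TPM with siNC (SD, n = 3), the siSUV39H1 libraries all lying above the siNC libraries. The size of this difference depends on the scale. On TMM-scaled counts, PPIB changed by 0.12 ± 0.08 and CALR by 0.09 ± 0.07 (log2 ± SE), against 0.23 and 0.20 on log2(TPM + 1). The median of all genes tested was 0.08 on log2(TPM + 1), against 0.01 on TMM-scaled counts. PPIB, CALR, P4HB, PDIA3 and PDIA4, the most abundant members in DMSO, made up 55.5% of the sum with chaetocin, 68.3% with DMSO, 66.4% with siSUV39H1 and 62.8% with siNC. In bulk RNA, fewer cells of a kind and less of an RNA per cell cannot be told apart.

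**Figure D1:**
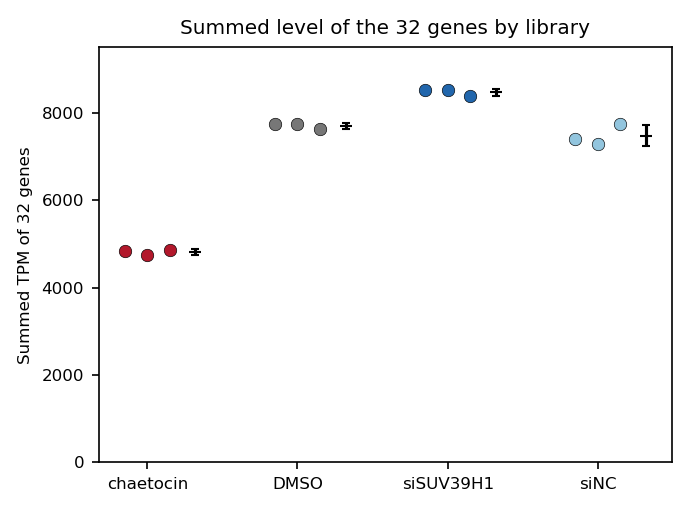
Summed TPM of the 32 ER genes (y axis, from 0) in each library, by group (x axis). Points are libraries, and the black marks to their right are the mean and SD of the 3 libraries. The chaetocin libraries lie between 4741 and 4854 TPM, below all others.

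The members ranged widely in level. In DMSO libraries, PPIB, the prolyl isomerase cyclophilin B, was highest at 1706 ± 9.67 TPM. CALR followed at 1445 ± 26.8 TPM and P4HB, a disulfide isomerase, at 1410 ± 32.8 TPM (SD, n = 3 each). CALR and P4HB overlapped in their ranges. The sensors ERN1, at 2.91 ± 0.28 TPM, and EIF2AK3, at 3.62 TPM, were near the other end. The sensor ATF6 was at 24.2 TPM, rank 23 of the 32 members. With chaetocin the order changed at the top: FKBP2, another prolyl isomerase, had rank 3 of the 32 members and CALR rank 4, against ranks 11 and 2 in DMSO.

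Chaetocin was set against its solvent to see what the inhibitor does to gene expression. The abundant folding factors fell: the chaperones CALR and HSPA5, all 4 disulfide isomerases, HSP90B1 and PPIB were lower, while several co-chaperones, EDEM1 and the sensor ERN1 rose. Of 31 members tested, 17 were lower and 7 higher at an adjusted p under 0.05 (edgeR, quasi-likelihood). Of all 15051 genes tested, 79.5% were called, 38.4% lower and 41.1% higher, and the members are to be read against those shares: 24 of 31 called is near the share of all genes. The median log2 change was −0.34 over the members and 0.04 over all genes tested. At least 2-fold lower were 4 members, against 16% of all genes, and 0 members were at least 2-fold higher, against 21.8% of all genes. The chaetocin and DMSO libraries did not overlap in 24 of 31 members, the same 24 that were called, against 82.8% of all genes tested.

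Among the lectin chaperones, CALR moved and its relatives did not detectably. CALR, calreticulin, which binds calcium and newly made glycoproteins in the ER lumen, had 306, 299 and 334 CPM with chaetocin, against 1495, 1532 and 1556 CPM with DMSO. All chaetocin libraries were far below all DMSO libraries. The log2 change was −2.29 ± 0.08 (SE), 4.88-fold lower (adjusted p = 3.89e-13, edgeR). CANX, calnexin, the membrane-bound relative of calreticulin, had 421, 415 and 367 CPM with chaetocin and 425, 413 and 390 CPM with DMSO, groups that overlapped (log2 change −0.03 ± 0.07, adjusted p = 0.702, edgeR). UGGT1, the enzyme that marks misfolded glycoproteins for another round of lectin binding, stood at −0.08 ± 0.08 (adjusted p = 0.414, edgeR). Both CALR and CANX hold the ER stress response element printed above.

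The HSP70 and HSP90 chaperones fell, and their helpers split. HSPA5, the ER HSP70 known as BiP, which also binds the UPR sensors, had 187, 179 and 188 CPM with chaetocin, against 575, 580 and 577 CPM with DMSO. The replicates of each group lay close together and the groups were far apart, a log2 change of −1.65 ± 0.06, or 3.13-fold lower (adjusted p = 9.89e-13, edgeR). HSP90B1, the ER HSP90 known as GRP94, averaged 231 ± 24.0 CPM with chaetocin and 382 ± 10.4 CPM with DMSO (−0.72 ± 0.12). HYOU1, a large HSP70 relative that recharges BiP, fell by 0.79 ± 0.07 on the log2 scale, and SDF2L1, a partner of the ER J-proteins, by 0.79 ± 0.11. CRELD2, a secreted ER protein known for its induction by ER stress, was at −0.43 ± 0.10, and the secreted factor MANF, which binds BiP, at −0.34 ± 0.10. DNAJB11, the J-protein ERdj3, was lower by the smallest amount among the members called (−0.21 ± 0.07, adjusted p = 0.0107, edgeR). That call was lost with library totals as the scale (−0.06, adjusted p = 0.396) and with upper-quartile scaling (−0.13, adjusted p = 0.0770). The J-protein ERdj4, DNAJB9, which hands misfolded clients to ERAD, rose by 0.40 ± 0.11, and DNAJC3, the J-protein p58IPK, by 0.83 ± 0.19. DNAJC3 had 35.3, 37.8 and 29.3 CPM with chaetocin, against 18.7, 20.9 and 17.9 CPM with DMSO, with no overlap. SIL1, which like HYOU1 recharges BiP, rose by 0.39 ± 0.09, the opposite direction to HYOU1.

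**Figure D2:**
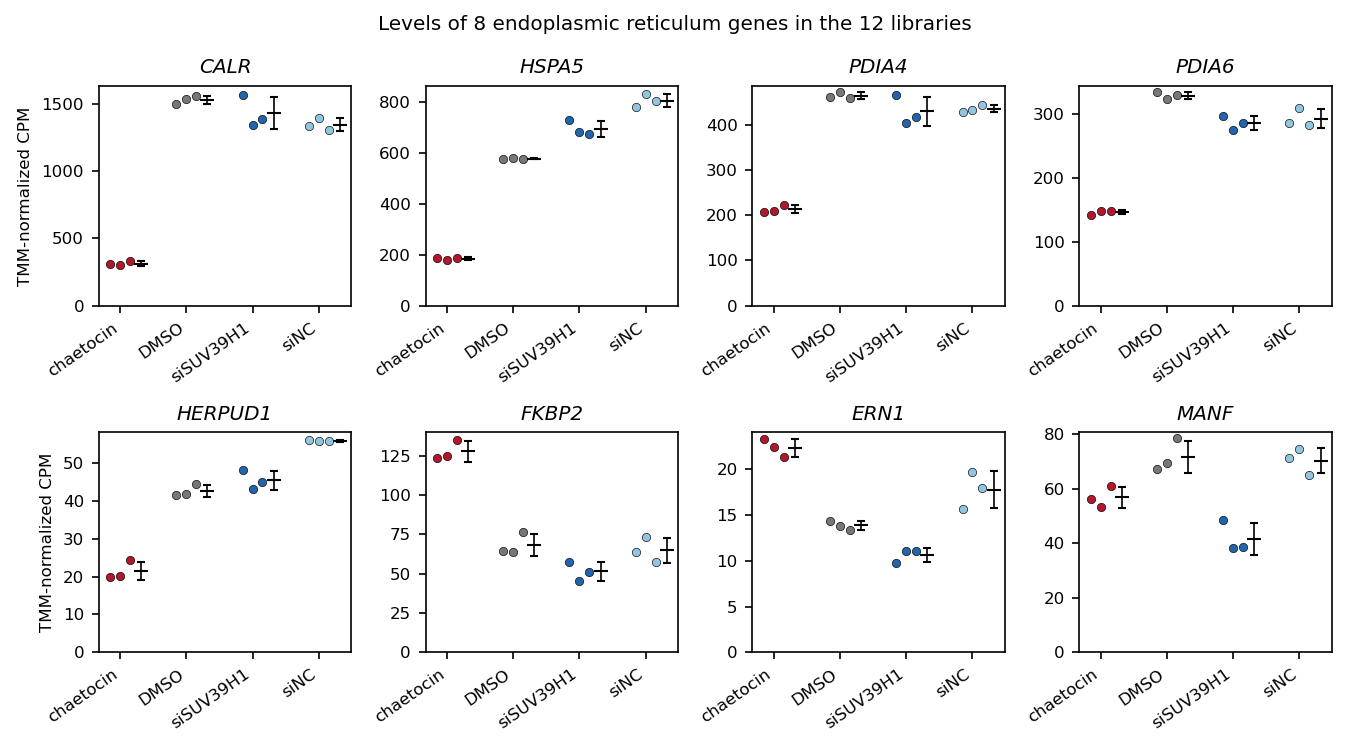
TMM-normalized CPM (y axes, from 0) of 8 ER genes in each library, by group (x axes). Points are libraries, and the black marks to their right are the mean and SD of 3 libraries. CALR, HSPA5, PDIA4, PDIA6 and HERPUD1 are lowest with chaetocin, FKBP2 and ERN1 highest with chaetocin, and MANF lowest with siSUV39H1.

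The 4 disulfide isomerases, which form and rearrange the disulfide bonds of proteins in the ER, all fell. PDIA6 had 143, 148 and 149 CPM with chaetocin, against 334, 324 and 330 CPM with DMSO (−1.17 ± 0.06, 2.25-fold lower). PDIA4 had 207, 210 and 223 CPM with chaetocin, against 462, 472 and 459 CPM with DMSO (−1.12 ± 0.06, 2.18-fold lower). In both genes the chaetocin libraries were well below the DMSO libraries, and the adjusted p was 4.29e-11 and 2.01e-10 (edgeR). PDIA3, which works with the lectin chaperones on glycoproteins, was at −0.86 ± 0.07, and P4HB, the founding member of the family, at −0.80 ± 0.07.

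The prolyl isomerases, which turn the bonds before proline residues, moved in opposite directions. PPIB averaged 454 ± 27.8 CPM with chaetocin and 822 ± 35.4 CPM with DMSO (SD, n = 3; −0.86 ± 0.08). FKBP2 had 124, 125 and 135 CPM with chaetocin, against 64.4, 63.6 and 76.4 CPM with DMSO, without overlap. It was the member with the largest rise (0.91 ± 0.10, 1.88-fold, adjusted p = 6.22e-07, edgeR). SEC61B, the beta subunit of the translocon channel, fell by 0.55 ± 0.10 on the log2 scale.

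ERAD genes were mixed, with 3 of 7 tested members lower, 2 higher and 2 not called. HERPUD1, a membrane protein of the ERAD complex and a known UPR target, had 20.02, 20.2 and 24.4 CPM with chaetocin, against 41.7, 42.0 and 44.6 CPM with DMSO (−0.99 ± 0.08, 1.99-fold lower, just short of 2-fold). OS9, a lectin that brings glycoproteins to the ubiquitin ligase, was at −0.80 ± 0.07, and the ligase SYVN1, known as HRD1, at −0.35 ± 0.07. Its partner SEL1L was at −0.18 ± 0.11 (adjusted p = 0.160, edgeR) with overlapping groups. That gene was called with the 6 libraries of the comparison fitted alone (−0.19, adjusted p = 0.0256). EDEM1, which trims mannose from misfolded glycoproteins, rose by 0.48 ± 0.08. Of the derlins, channel proteins of ERAD, DERL1 rose by 0.34 ± 0.07 and DERL2 was at −0.14 ± 0.08 (adjusted p = 0.128, edgeR). DERL2 was called lower without chaetocin replicate 3 (−0.20, adjusted p = 0.0496).

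Of the sensors and XBP1, only ERN1 was called. ERN1 had 23.3, 22.4 and 21.3 CPM with chaetocin, against 14.4, 13.8 and 13.3 CPM with DMSO, without overlap (0.69 ± 0.10, 1.61-fold higher, adjusted p = 1.33e-05, edgeR). XBP1 had 89.0, 81.3 and 87.4 CPM with chaetocin and 82.5, 82.9 and 88.7 CPM with DMSO (0.02 ± 0.08, adjusted p = 0.815, edgeR). It was called higher with library totals as the scale (0.17, adjusted p = 0.0218) and by limma-trend on log2(TPM + 1) (0.17, adjusted p = 0.00635). These counts are per gene and do not separate spliced from unspliced XBP1. EIF2AK3 had 10.8, 11.04 and 8.77 CPM with chaetocin and 9.13, 8.86 and 8.54 CPM with DMSO, which overlapped (0.21 ± 0.12, adjusted p = 0.122). It was called higher without chaetocin replicate 3 (0.30, adjusted p = 0.0357), with upper-quartile scaling (0.29, adjusted p = 0.0376) and with library totals (0.36, adjusted p = 0.0212). ATF6 had 77.8, 73.7 and 72.9 CPM with chaetocin and 71.8, 77.1 and 73.6 CPM with DMSO (0.01 ± 0.09, adjusted p = 0.906, edgeR).

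**Figure D3:**
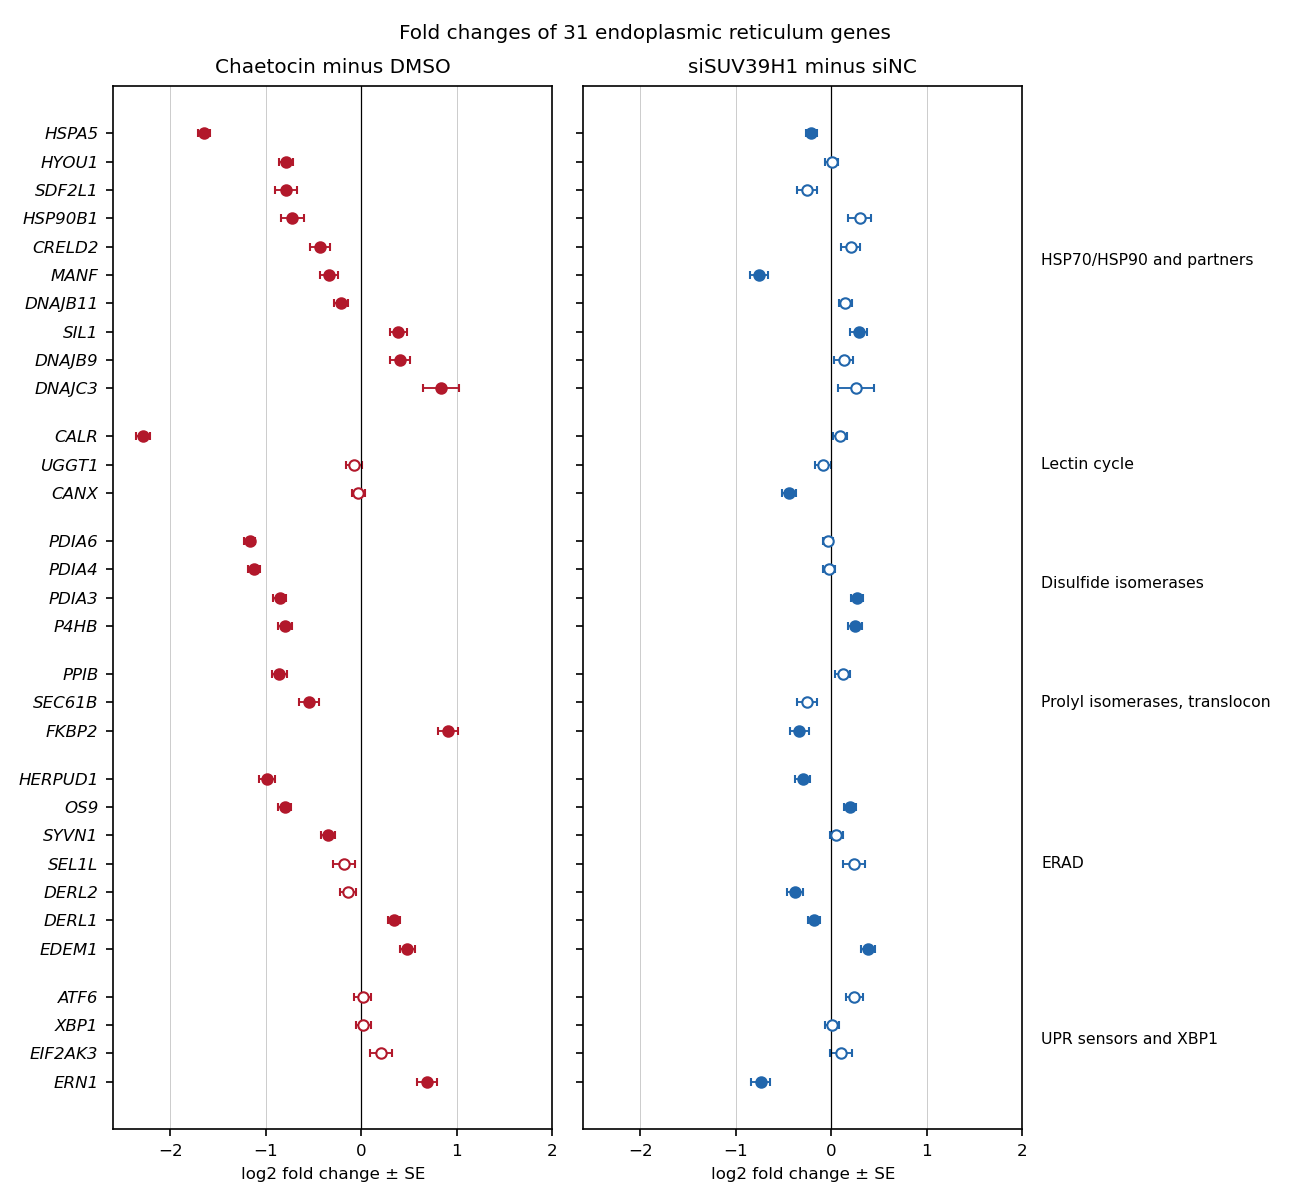
Log2 fold change ± SE (x axes) of the 31 tested ER genes for chaetocin minus DMSO (left) and siSUV39H1 minus siNC (right), grouped by role (y axis). Filled points passed an adjusted p of 0.05 and open points did not. Changes reach −2.29 (CALR) with chaetocin and −0.76 (MANF) with siSUV39H1.

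ATF6 differed between groups in a measure that counts do not show. The length that a gene's deposited count and FPKM (fragments per kilobase, scaled to depth) together imply, the effective length of the transcripts its reads were assigned to, was 3403, 3561 and 3677 bases with chaetocin, against 5526, 5174 and 5424 bases with DMSO. The ratio of chaetocin to DMSO was 0.660, and 0.207% of the 10621 genes measurable in both groups had a smaller one. For these genes the middle 90% of ratios lay between 0.919 and 1.05, and the other members measured lay between 0.927 and 1.03. Since TPM divides by that length, ATF6 was at 45.4, 40.4 and 37.7 TPM with chaetocin, against 23.6, 26.2 and 22.9 TPM with DMSO, although its counts overlapped, and limma-trend on log2(TPM + 1) called it higher (0.74, adjusted p = 0.000106). The implied length was 6226, 6760 and 6415 bases with siSUV39H1, against 5608, 5866 and 6024 bases with siNC, a ratio of 1.11. XBP1 had an implied length of 1770 ± 0.72 bases with chaetocin and 1771 ± 0.11 bases with DMSO. Which transcripts were annotated is not given in the sources used here, so the lengths are not assigned to isoforms.

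**Figure D4:**
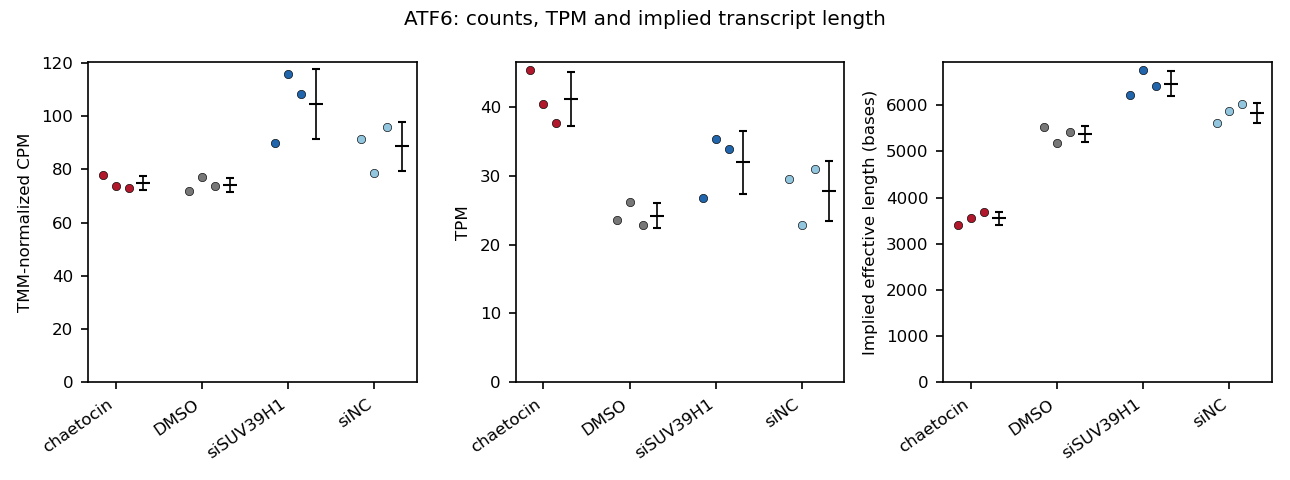
ATF6 in each library by group (x axes), as TMM-normalized CPM (left), TPM (middle) and the effective length in bases implied by counts and FPKM (right), all from 0. Points are libraries, and black marks are the mean and SD of 3 libraries. CPM of chaetocin and DMSO libraries overlap, TPM do not, and the implied length is 3403 to 3677 bases with chaetocin, against 5174 to 5526 bases with DMSO.

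The members that fell with chaetocin were mostly those of high level. Ranked by TPM in siNC libraries, which the contrast does not use, 13 of the 16 highest members were lower, 1 was higher and 2 were not called (median log2 change −0.79). Of the other 15 tested, 4 were lower, 6 higher and 5 not called (median 0.01). Over all genes, of the 1858 tested genes at or above the level of the lowest of those 16 members, 86.5 TPM, 66.6% were lower and 16.4% higher (median −0.43). Of the 8253 genes tested below that level and at or above the lowest of the other 15 members, 44.1% were lower and 35.4% higher (median −0.09). Spearman's rho between TPM in siNC and the log2 change was −0.73 over the 31 members and −0.42 over all 15051 genes tested, given as descriptions across genes that share libraries and are not independent replicates.

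**Figure D5:**
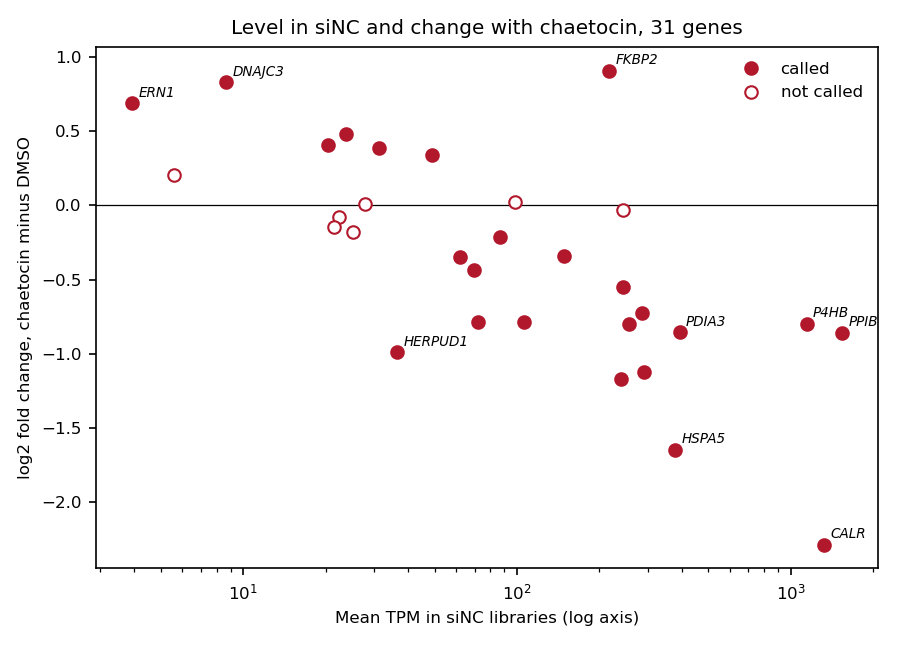
Log2 fold change with chaetocin against DMSO (y axis) and mean TPM in siNC libraries (x axis, log scale) of the 31 tested ER genes. Filled points passed an adjusted p of 0.05. FKBP2 is the only called rise among the 16 genes of highest level.

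The 6 members that hold the ER stress response element had log2 changes with chaetocin from −2.29 (CALR) to 0.02 (XBP1), with a median of −0.58. The other 25 tested members lay between −1.17 (PDIA6) and 0.91 (FKBP2), with a median of −0.21. Not all of these 25 are known to lack the element. For PDIA3 and DERL1 no promoter sequence was found, and PDIA6 holds the element in another listed promoter. Of the 6 holders, all but CRELD2 were among the 16 members of highest level in siNC, whose median was −0.79. The part of level in the difference between the medians was not tested. The genes with the related element, HERPUD1, HYOU1 and SDF2L1, were all lower, as were 17 of the 31 members tested and 38.4% of all genes.

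Knockdown was set against the control siRNA to see what follows a lower SUV39H1 mRNA level, and the changes in the ER genes were small. MANF, ERN1, CANX and DERL2 fell, EDEM1 and PDIA3 rose, and 0 members were called with a 2-fold change, against 2.26% of all genes lower and 1.14% higher. Of 31 tested, 13 were called, against 33.9% of all genes: 8 were lower and 5 higher, against 18.6% and 15.3% of all genes, and the median was 0.05 for members and 0.01 for all genes. The balance was not stable: limma-trend on log2(TPM + 1), which changes the test, the scaling and the unit together, called 9 higher and 5 lower, and it moved with single libraries, with 5 lower without siSUV39H1 replicate 3 and 2 higher without siNC replicate 1.

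MANF had the largest fall. It had 48.4, 38.1 and 38.5 CPM with siSUV39H1, against 71.2, 74.6 and 65.3 CPM with siNC, and 56.9 ± 3.98 CPM with chaetocin, against 71.9 ± 5.90 CPM with DMSO. The siSUV39H1 libraries were below all others (−0.76 ± 0.10, 1.69-fold lower, adjusted p = 2.54e-05, edgeR). ERN1 had 9.72, 11.02 and 11.1 CPM with siSUV39H1, against 15.7, 19.7 and 17.9 CPM with siNC (−0.74 ± 0.10, 1.67-fold lower, adjusted p = 5.73e-05, edgeR). Its groups did not overlap, and the fall is opposite to its rise with chaetocin. CANX averaged 413 ± 17.1 CPM with siSUV39H1 and 561 ± 39.0 CPM with siNC (−0.44 ± 0.07, adjusted p = 0.000231), while the DMSO libraries averaged 410 ± 17.8 CPM. DERL2 was at −0.38 ± 0.08, and averaged 17.9 TPM with siSUV39H1 and 21.5 TPM with siNC, while the DMSO libraries averaged 16.7 TPM. EDEM1 rose by 0.38 ± 0.08 and PDIA3 by 0.27 ± 0.06.

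The other calls with siSUV39H1 were also lost in settings besides a minimum fold of 1.5, which left 0 members higher and 0 lower. HSPA5 had 730, 680 and 674 CPM with siSUV39H1, against 781, 830 and 805 CPM with siNC (−0.21 ± 0.06, adjusted p = 0.0102, edgeR), and was not called without siSUV39H1 replicate 3 (adjusted p = 0.0559) or on TPM (adjusted p = 0.117). Both groups lay above the DMSO libraries (577 ± 2.23 CPM). HERPUD1 was at −0.30 ± 0.08 and was not called on TPM (adjusted p = 0.0635). P4HB was at 0.25 ± 0.07 and lost its call without siNC replicate 1 (adjusted p = 0.0510). SIL1, at 0.29 ± 0.09, lost it without siSUV39H1 replicate 1 (0.0764) or siNC replicate 1 (0.0869) or 3 (0.0712), where each value is an adjusted p. OS9 was at 0.20 ± 0.07 and lost its call with the replicate number as a block (adjusted p = 0.0666), with the 6 libraries alone (0.0687), and without siSUV39H1 replicate 1 (0.108) or 3 (0.0699) or siNC replicate 1 (0.0915) or 3 (0.112). FKBP2 was at −0.33 ± 0.10 with overlapping groups, and lost its call without siSUV39H1 replicate 2 (adjusted p = 0.0952) or 3 (0.0613) or siNC replicate 1 (0.0589) or 2 (0.102). DERL1, at −0.18 ± 0.07 with an adjusted p of 0.0429, lost its call in most settings, with the block among them (0.0545) and with adjusted p of 0.226 without siNC replicate 1 as the largest among single-library omissions.

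Among the 18 members not called with siSUV39H1, ATF6 came closest. It had 90.0, 116 and 108 CPM with siSUV39H1, against 91.3, 78.5 and 96.0 CPM with siNC (0.24 ± 0.09, adjusted p = 0.0504), and it was called with RLE scaling (adjusted p = 0.0367), by DESeq2 (0.0297) and without siSUV39H1 replicate 1 (0.00406) or siNC replicate 3 (0.0272). HSP90B1 varied within groups, with 428, 617 and 518 CPM with siSUV39H1 and 441, 356 and 477 CPM with siNC (0.30 ± 0.12, adjusted p = 0.0748). Without siSUV39H1 replicate 1 it was called higher (0.42, adjusted p = 0.00737), and likewise without siNC replicate 3 (0.39, adjusted p = 0.0332). XBP1 had 108, 90.8 and 91.0 CPM with siSUV39H1 and 92.5, 104 and 91.5 CPM with siNC (0.01 ± 0.08, adjusted p = 0.953). EIF2AK3 had 13.6, 14.8 and 13.9 CPM with siSUV39H1 and 12.2, 12.2 and 14.9 CPM with siNC (0.10 ± 0.11, adjusted p = 0.526, edgeR). CALR stood at 0.09 ± 0.07, PDIA4 at −0.02 ± 0.06 and PDIA6 at −0.03 ± 0.06, with overlapping groups.

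The 2 control groups were compared because a fold against siNC starts from the siNC level. One received an siRNA and the other a solvent, and which of these a difference goes with cannot be told apart. With siNC 11 members were higher and 2 lower than with DMSO, 13 of 31 called, against 35.2% of all genes tested, 17% higher and 18.2% lower. At least 2-fold higher was 1 member, against 1.61% of all genes, and 0 were 2-fold lower, against 3.42%. The number lower was 4 without siSUV39H1 replicate 1, which enters through the shared spread, and 1 without DMSO replicate 1, 2 or 3, siSUV39H1 replicate 3 or siNC replicate 1 or 3. DNAJB9 was the member with the largest rise, at 25.8, 25.1 and 28.4 CPM with siNC, against 12.7, 12.3 and 11.97 CPM with DMSO (1.10 ± 0.11, 2.15-fold, adjusted p = 1.67e-06, edgeR). It had 28.2, 32.5 and 26.1 CPM with siSUV39H1, so both transfected groups lay above DMSO. EIF2AK3 was higher by 0.57 ± 0.12, HSPA5 by 0.48 ± 0.06 and CANX by 0.45 ± 0.07. HERPUD1, EDEM1, DNAJB11, HYOU1, DERL2, ERN1 and ATF6 were also called higher, at 0.26 to 0.39. Of these, ERN1 lost its call without DMSO replicate 3 (adjusted p = 0.0542) or siNC replicate 2 (0.0563), and ATF6 in several settings, with the block at 0.0646. P4HB was lower by a log2 change of −0.36 ± 0.07 and PDIA6 by −0.17 ± 0.06, the call of PDIA6 being lost with the block (adjusted p = 0.0672). This comparison and that of chaetocin share the DMSO libraries: HSPA5 was at 0.48 with siNC and −1.65 with chaetocin, and DNAJB9 at 1.10 and 0.40.

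The effects of chaetocin and of siSUV39H1, which share no library, were then set against each other in the same fit. Of the 31 members, 3 were called lower in both comparisons (HERPUD1, HSPA5 and MANF) and 2 higher in both (EDEM1 and SIL1). In opposite directions were 6 members. OS9, P4HB and PDIA3 were lower with chaetocin and higher with siSUV39H1. DERL1, ERN1 and FKBP2 were higher with chaetocin and lower with siSUV39H1. Of these 6, OS9, P4HB, DERL1 and FKBP2 lost their siSUV39H1 call when some single libraries were left out. HSPA5 and SIL1 lost theirs likewise, and HERPUD1 on TPM. PDIA3, ERN1, MANF and EDEM1 kept theirs in all settings but the minimum fold. P4HB was lower and ERN1 higher with siNC than with DMSO (log2 change −0.36 and 0.36). HSPA5, HERPUD1 and EDEM1 were also higher with siNC than with DMSO (0.48, 0.39 and 0.38). The other members called in both comparisons, MANF among them (−0.03), were not called there. The falls of HSPA5 and HERPUD1 with siSUV39H1 thus started from a raised siNC level. HSPA5 averaged 695 CPM with siSUV39H1 and 577 CPM with DMSO, and HERPUD1 45.6 and 42.8 CPM. The siSUV39H1 and DMSO groups were not tested against each other. Of all genes tested, 14.7% were called in both in the same direction, against 5 of 31 members, and 12.9% in opposite directions, against 6 of 31. The difference of the effects itself was below 0 for 16 members and above 0 for 5 at an adjusted p under 0.05, 21 of 31 called, against 67.6% of all genes tested, 33.7% below and 33.9% above. Beyond 2-fold were 7 members below 0, against 16.5% of all genes, and 2 above, against 19.5%. It was largest for CALR at −2.38 ± 0.10 (adjusted p = 2.31e-11, edgeR) and HSPA5 at −1.43 ± 0.08, and between −1.13 and −1.05 for the 4 disulfide isomerases. Above 0 were ERN1 (1.43 ± 0.14, adjusted p = 3.52e-07), FKBP2 (1.24 ± 0.14), DERL1 (0.53 ± 0.09), MANF (0.42 ± 0.14) and CANX (0.41 ± 0.10). MANF fell in both comparisons, and fell more with siSUV39H1. EDEM1 and SIL1, which rose in both, had differences of 0.10 ± 0.11 (adjusted p = 0.444) and 0.10 ± 0.13 (adjusted p = 0.484), and XBP1 of 0.01 ± 0.11 (adjusted p = 0.932, edgeR). The call of SEL1L (−0.42 ± 0.16) was lost without chaetocin replicate 3 (adjusted p = 0.0789), DMSO replicate 2 (0.0573), siSUV39H1 replicate 2 (0.0758) or siNC replicate 2 (0.0559) and with the block (0.0553).

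Other genes of the same pathways were taken as whole lists by function. Their counts are to be read against the shares of all genes tested, which were 38.4% lower and 41.1% higher with chaetocin, 18.6% and 15.3% with siSUV39H1, 18.2% and 17% with siNC minus DMSO, and 33.7% and 33.9% for the difference of the effects. Among 32 further ER folding genes tested, 21 were lower and 5 higher with chaetocin (median −0.51). The collagen-directed isomerase FKBP10 averaged 117 ± 6.69 CPM with chaetocin and 516 ± 29.8 CPM with DMSO (SD, n = 3; −2.15 ± 0.07), FKBP9 was at −1.67 ± 0.07 and the disulfide isomerase TXNDC5 at −1.33 ± 0.06. ERO1B, an oxidase that recharges disulfide isomerases, rose by 1.96 ± 0.21, and ERP44 by 0.55 ± 0.06. With siSUV39H1, 11 of these 32 were higher and 5 lower (median 0.20), with ERO1A, the other oxidase of that kind, at 0.75 ± 0.08. MESD, a chaperone of LDL-receptor family proteins, rose by 1.28 ± 0.07, at 68.6 ± 1.27 CPM with siSUV39H1 and 28.2 ± 1.16 CPM with siNC, while DMSO libraries were at 61.0 ± 1.37 CPM. With siNC minus DMSO, 9 were higher and 4 lower, and for the difference of the effects 4 were above and 18 below 0.

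Of 27 genes for translocation, signal peptide removal and N-glycosylation, 17 were lower and 4 higher with chaetocin (median −0.37). SEC61A1, the pore of the translocon, was at −1.34 ± 0.07, the oligosaccharyltransferase subunit RPN2 at −1.10 ± 0.07 and GANAB, the catalytic subunit of glucosidase II, at −1.12 ± 0.07. SSR3, a translocon-associated protein, rose by 0.67 ± 0.07, and SEC11C, a signal peptidase subunit, by 0.66 ± 0.09. With siSUV39H1, 3 were higher and 5 lower (median −0.02). GANAB rose by 1.08 ± 0.07, at 603 ± 44.6 CPM with siSUV39H1 and 285 ± 3.51 CPM with siNC, and both were below the 899 ± 7.74 CPM of DMSO. SPCS3, a signal peptidase subunit, fell by 1.03 ± 0.11, at 154 ± 19.7 CPM with siSUV39H1 and 314 ± 52.1 CPM with siNC, while DMSO libraries were at 218 ± 9.59 CPM. With siNC minus DMSO, 9 were higher and 1 lower, and for the difference 3 were above and 16 below 0.

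Of 24 further ERAD genes, 8 were lower and 8 higher with chaetocin (median −0.03), with the mannosidase MAN1B1 at −1.75 ± 0.08 and the glycanase NGLY1 at 1.07 ± 0.10. With siSUV39H1, 6 were higher, among them ERLIN2 at 0.56 ± 0.07, and 4 lower, among them AUP1 at −0.55 ± 0.07. NGLY1 fell by 0.59 ± 0.10 with siSUV39H1. It averaged 12.26 CPM with siSUV39H1 and 18.45 CPM with siNC, while DMSO libraries were at 13.31 CPM. With siNC minus DMSO 7 were higher and 3 lower, and for the difference 6 were above and 9 below 0.

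In the PERK and ATF4 branch, 7 of 18 genes were higher and 10 lower with chaetocin (median −0.33). ATF4 averaged 61.5 ± 1.21 CPM with chaetocin and 164 ± 10.5 CPM with DMSO (−1.42 ± 0.06). The serine synthesis genes PHGDH and PSAT1 were at −2.41 ± 0.10 and −1.87 ± 0.09. PPP1R15A, the phosphatase subunit that restores translation, rose by 1.56 ± 0.07, the cystine transporter SLC7A11 by 4.59 ± 0.21 and the stress factor ATF3 by 4.53 ± 0.17. With siSUV39H1, 8 were higher and 1 lower (median 0.19), with SESN2 at 0.81 ± 0.08 and CHAC1 at 0.64 ± 0.09. With siNC minus DMSO 13 were higher and 1 lower (median 0.42), and for the difference 7 were above and 10 below 0.

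Of 22 other transducers and effectors of the UPR, 11 were higher and 6 lower with chaetocin (median 0.18). ATF6B, the paralog of ATF6, was at −1.05 ± 0.07, and WFS1, an ER membrane protein, at −1.01 ± 0.07. EIF2AK2, the RNA-sensing relative of PERK, rose by 3.04 ± 0.18 and the BH3-only gene BBC3 by 1.39 ± 0.10. With siSUV39H1, 6 were higher and 3 lower (median 0.11). MBTPS1, the protease that makes the first cut in ATF6, rose by 0.59 ± 0.06, and NFE2L1, an ER-anchored transcription factor, by 0.98 ± 0.06. The ER membrane protein TMBIM6, an inhibitor of cell death, fell by 0.52 ± 0.06. With siNC minus DMSO, 5 were higher and 5 lower, and for the difference 8 were above and 5 below 0.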

How the data were processed

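The tables the authors deposited hold an expected count, a TPM value and an FPKM value for each gene and library, per the file headers. Bowtie2, RSEM 1.3.1, DESeq2 1.4.5 and hg38 stand, without roles, in the submitters' processing notes. The annotation and any read filters were not stated in any source used here. Expected counts divide reads shared between similar genes by estimate. All library columns were mapped by name, and 0 were left unmapped.

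The deposited expected counts were rounded, filtered with filterByExpr, scaled by TMM and fitted in 1 model of all 12 libraries with edgeR 4.0.16 in R 4.3.3 (quasi-likelihood, 8 residual degrees of freedom, 15051 genes tested). Benjamini-Hochberg adjustment ran over all genes tested, and calls are at 0.05. Changes are log2 values ± SE, the SE derived from the F statistic. Levels compared between genes use the deposited TPM of the authors. Implied lengths come from the deposited expected count, its library total and the deposited FPKM, where the FPKM is at least 1. The fit was run on simulated counts with 100 genes changed 1.5-fold and 100 changed 2-fold. It recovered 53% and 78% of them for chaetocin minus DMSO, and 63% and 83% for siSUV39H1 minus siNC. With so few changed genes, the simulation cannot test the scaling of the chaetocin data, where 79.5% of genes were called. No 2 libraries of a group were copies, since the variance between their counts was 3.37 to 17.9 times that of counting.

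The members and lists were chosen with earlier results of these data known. Library values are given for members called and changed at least 2-fold in a main comparison, for the 3 sensors and for XBP1. Further genes are among the 3 of smallest p per list, direction and comparison. The library values of FKBP2, MANF, HERPUD1, DNAJC3, DNAJB9, CANX and HSP90B1 were chosen after they were seen. The plasma cell marker MZB1 was not analysed here. The level of 1 leukocyte marker is not reported here. Promoter sequences and positions are from RefSeq (GRCh38.p14). P-values measure the spread between libraries, which the design text calls biological triplicates. Separate cultures or days are not described further. Alternatives were other scalings and filters, DESeq2 1.42.0, limma 3.58.1 (voom, or trend on log2(TPM + 1) and log2(TPM + 0.1)), a minimum fold of 1.5, fewer libraries and the replicate number as a block.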

Additional observations from a re-analysis of the deposited data

How the results depend on the processing

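Of the 17 members lower with chaetocin, 16 kept their call under all 23 alternatives other than the minimum fold, DNAJB11 being the exception, and all 7 higher members kept theirs. With siSUV39H1, 4 of 8 lower and 2 of 5 higher members did. A minimum fold of 1.5 left 1 higher and 11 lower members with chaetocin (7033 of all genes), 0 and 0 with siSUV39H1 (481), 2 and 10 for the difference of the effects (6062), and 1 and 0 for siNC minus DMSO (640); by its construction it removes small changes. With limma-trend on TPM, 9 members were higher and 5 lower with siSUV39H1 at either pseudocount. Members lower with siNC than DMSO numbered 4 with upper-quartile scaling, library totals, DESeq2 or log2(TPM + 1), and 1 without a filter on low counts or with the replicate block. Leaving out single libraries gave 7 to 8 higher and 17 to 18 lower members with chaetocin, 2 to 7 and 5 to 10 with siSUV39H1, 5 to 7 and 15 to 17 for the difference, and 9 to 14 and 1 to 4 for siNC minus DMSO. Over all genes the called numbered 11500 to 12379, 3868 to 5463, 9619 to 10241 and 4167 to 5769 in the same order. ATF6 reversed in the difference of the effects on TPM, at 0.54 with log2(TPM + 1) and 0.56 with log2(TPM + 0.1), against −0.23 on counts; TPM divides by the implied length, which differed.

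No pairing by replicate number was seen, though weak correlations cannot exclude it. Same-numbered libraries of siSUV39H1 and siNC had deviations correlated between −0.22 and 0.14, and those of chaetocin and DMSO between −0.05 and 0.06. In these pairs of groups 1 of 6 and 3 of 6 libraries correlated best with their own number. The largest correlation lay across numbers, at 0.28 for siSUV39H1 replicate 1 and siNC replicate 2. With the number as a block, 7 members were higher and 17 lower with chaetocin, and 4 and 7 with siSUV39H1. Library totals put the median of all genes with chaetocin at 0.19, against 0.04 with TMM, so changes of that size depend on scaling; 9 members were then higher and 16 lower. With a scale of library totals, 52.3% of all calls with siSUV39H1 were higher, and 63.1% on log2(TPM + 1), against 45.2% with TMM. Fitting the 6 compared libraries alone was not run for the difference of the effects, which uses all groups. DERL3 had too few counts to be tested at this depth. Counting any listed promoter, an alternative chosen after seeing the data, gave 7 members with the ER stress response element, against 6.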
